A study of Mus musculus with 12 samples.

Results

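Kupffer cell and macrophage markers are 10 genes whose RNA marks the resident macrophages of the liver (Clec4f, Vsig4, Cd5l, Timd4, Marco) or macrophages more widely (Adgre1, Cd163, Csf1r, Lyz2, Spi1). They were taken by name, as the genes that carry these symbols in the deposited expression table. Each symbol belonged to 1 gene, which gave 10 of the 47069 genes listed. All 10 were above the filter on low values and were among the 17386 genes tested.

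The study deleted Cdk1, the kinase that drives cells into mitosis, from mouse hepatocytes and asked how liver tissue fares when its hepatocytes cannot divide. RNA was sequenced from isolated hepatocytes and from whole liver at postnatal day 14 (P14), with 3 libraries in each of 4 groups. WT groups are labelled wild type, and whether these animals carried the floxed Cdk1 allele was not given in the sources used here. Cdk1 Liv-/- groups carried Cdk1 flox/flox and Albumin-Cre, a transgene active in the hepatocyte lineage and not in macrophages. Per the methods, males were used in experiments and the animals ate a standard diet. The labels do not say whether hepatocytes and whole liver came from the same animals.

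Kupffer cells line the sinusoids of the liver, where they take up particles, dying cells and bacterial products from portal blood. They are seeded before birth, renew in place, and depend on signalling through the CSF1 receptor and on contact with sinusoidal endothelial cells, stellate cells and hepatocytes. When they are lost or the liver is injured, monocytes enter from blood and can take on Kupffer cell genes, with Timd4 and Clec4f among the genes that appear late in that process.

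Values are FPKM, fragments per kilobase of transcript relative to the mapped total of the library, so levels of different genes can be set side by side per length. Cdk1 itself checks the labels. It read 27.9, 20.4 and 28.2 FPKM in WT hepatocytes, 9.68, 11.8 and 6.87 in Cdk1 Liv-/- hepatocytes, 25.3, 22.7 and 21.5 in WT whole liver and 11.7, 12.1 and 14.2 in Cdk1 Liv-/- whole liver. All 6 Cdk1 Liv-/- libraries were below all 6 WT libraries, with a log2 fold change of -1.40 (SE 0.22, adjusted p 0.0148) in hepatocytes and -0.85 (SE 0.10, adjusted p 0.00353) in whole liver. Hepatocyte markers were abundant in both compartments, with albumin RNA at 60008 FPKM in WT hepatocytes 1 and 58998 FPKM in WT whole liver 1. Albumin RNA was lower in Cdk1 Liv-/- libraries, at 39898 to 44890 FPKM in hepatocytes and 43328 to 47348 FPKM in whole liver. The isolated hepatocytes were not free of macrophage RNA, since each of the 10 markers was above 0 in all 12 libraries.

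A total of 3 libraries stand apart. The summed FPKM of the 10 markers, relative to its mean in WT whole liver, was 0.699, 0.381 and 1.27 in WT hepatocytes, so WT hepatocytes 3 was above the whole liver mean and WT hepatocytes 2 held the least of its group. The same sum was 0.446, 0.350 and 0.307 in Cdk1 Liv-/- hepatocytes and 1.33, 1.94 and 1.48 in Cdk1 Liv-/- whole liver. In Cdk1 Liv-/- whole liver 3, Xist read 158 FPKM and the Y-linked Ddx3y and Uty read 0, while Xist was at most 0.14 FPKM elsewhere, so that library did not match the male sex given in the methods.

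Depth was estimated from the whole-read steps of low FPKM values, of which 67.6% to 73.2% in a library fell on a step. On a transcript of 1 kb, 1 FPKM stood for 34.9 reads in the shallowest library and 49.9 in the deepest. Reads behind a value were estimated from this depth and the longest coding transcript of each gene. The fewest were 126, for Cd163 in Cdk1 Liv-/- hepatocytes 2, a counting error of 8.9%. Timd4 rested on at least 129 reads, Spi1 on at least 174 and each of the other 7 markers on at least 373. Counting error leaves out the spread between libraries. Among the WT groups, the coefficient of variation of a marker lay between 39.7% and 65.2% in hepatocytes and between 6.45% and 24.4% in whole liver. Among the Cdk1 Liv-/- groups it lay between 8.57% and 42.4% in hepatocytes and between 4.20% and 55.0% in whole liver.

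PU.1, the protein made from Spi1, is the master regulator of the macrophage lineage, and its binding core is GAGGAA. RefSeq promoters (GRCm38.p6, from 250 bases before to 50 after the gene start) were given for 7 of the 10 markers: Clec4f, Vsig4, Cd5l, Timd4, Marco, Cd163 and Lyz2. GAGGAA was searched on both strands. It occurred in 3 of the 7, where 28.3% of all 32851 promoters of 300 bases hold it (9289 promoters). The promoters of Vsig4 (chrX:96293389-96293688, minus strand, 2 matches), Cd5l (chr3:87357631-87357930, plus strand, 1 match) and Marco (chr1:120504975-120505274, minus strand, 1 match) are shown because these genes have the letters, with matches in capitals. In Cd5l the match is on the reverse strand and reads TTCCTC. A match describes the sequence and does not show a bound site.
Vsig4: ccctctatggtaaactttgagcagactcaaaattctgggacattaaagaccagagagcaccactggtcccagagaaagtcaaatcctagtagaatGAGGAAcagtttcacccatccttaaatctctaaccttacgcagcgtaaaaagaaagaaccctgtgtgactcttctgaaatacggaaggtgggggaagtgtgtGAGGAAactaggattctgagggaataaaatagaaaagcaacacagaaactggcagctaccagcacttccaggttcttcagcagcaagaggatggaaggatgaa
Cd5l: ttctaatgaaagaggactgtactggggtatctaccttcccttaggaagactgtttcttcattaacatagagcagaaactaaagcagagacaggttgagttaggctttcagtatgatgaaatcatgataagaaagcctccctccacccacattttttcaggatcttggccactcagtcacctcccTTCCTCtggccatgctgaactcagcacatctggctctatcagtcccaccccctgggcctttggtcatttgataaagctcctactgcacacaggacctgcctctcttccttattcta
Marco: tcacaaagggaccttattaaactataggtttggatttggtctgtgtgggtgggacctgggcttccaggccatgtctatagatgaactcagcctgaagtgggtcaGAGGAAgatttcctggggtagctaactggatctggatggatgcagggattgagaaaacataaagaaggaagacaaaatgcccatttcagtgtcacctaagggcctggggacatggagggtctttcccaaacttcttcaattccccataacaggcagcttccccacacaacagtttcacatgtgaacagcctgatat

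**Figure D1:**
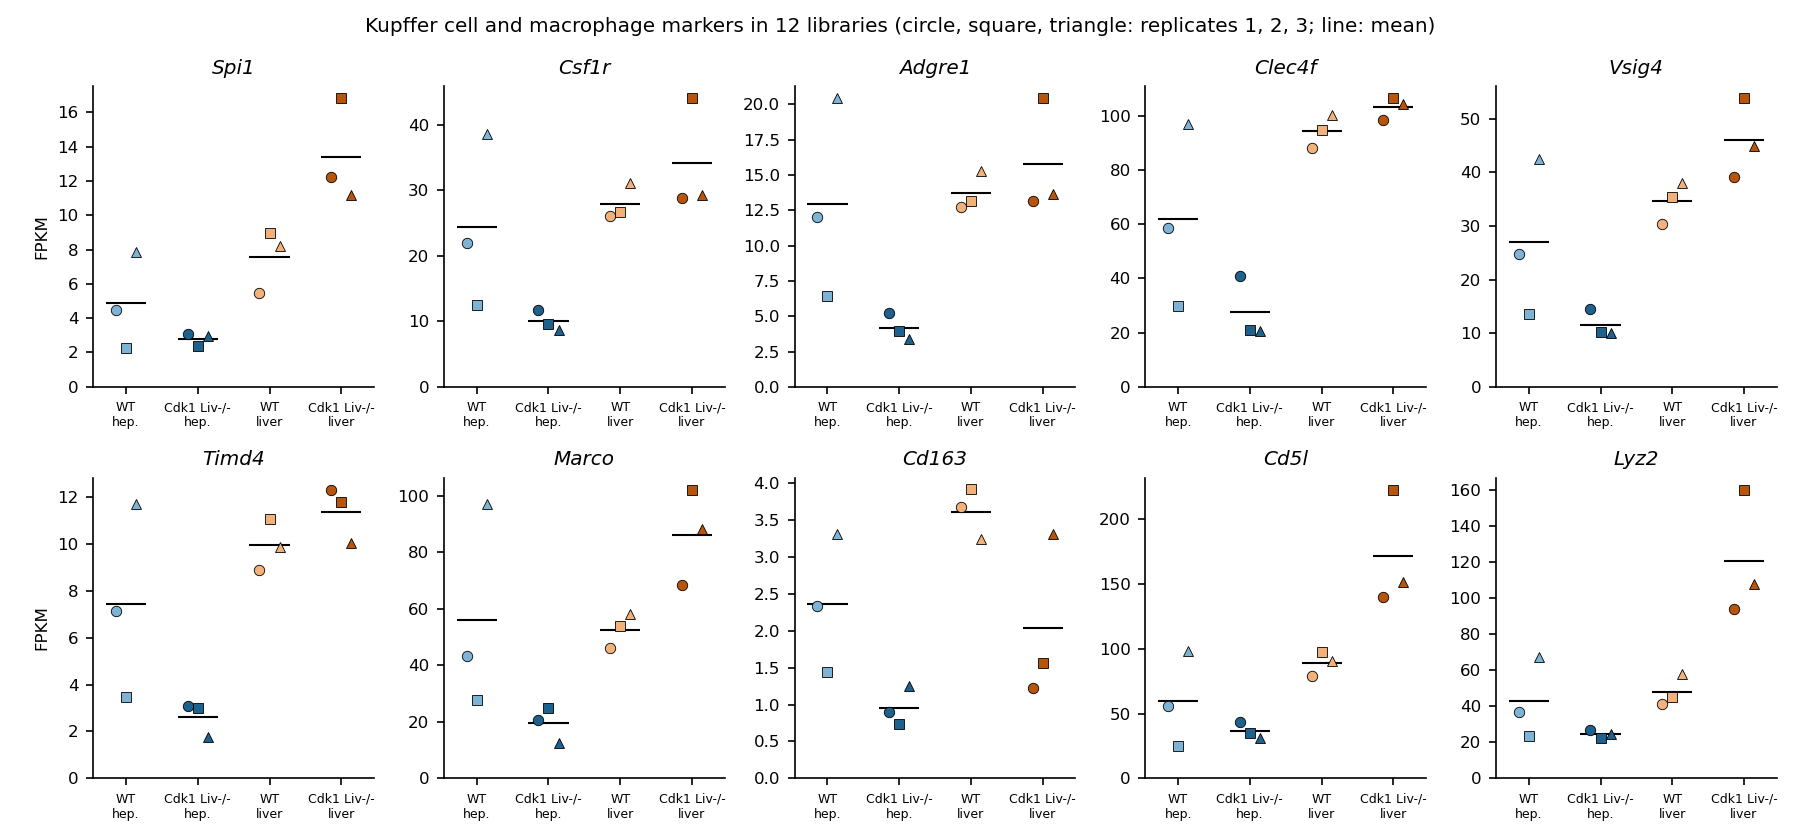
FPKM of each of the 10 markers in every library, by group, on axes that start at 0 and differ between markers, with a point per library and a line at the group mean. Clec4f ran from 29.7 to 97.1 FPKM in WT hepatocytes and from 88.1 to 100.3 FPKM in WT whole liver, and the WT hepatocyte libraries lie far apart for every marker.

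Across the markers, levels in WT whole liver fell in the order Clec4f, Cd5l, Marco, Lyz2, Vsig4, Csf1r, Adgre1, Timd4, Spi1 and Cd163, from 94.4 ± 6.09 FPKM (mean ± SD, n = 3) for Clec4f to 3.61 ± 0.345 FPKM for Cd163. Neighbours in that order overlapped for Clec4f and Cd5l, Marco and Lyz2, Vsig4 and Csf1r, and Timd4 and Spi1, and not for the other pairs. In Cdk1 Liv-/- whole liver the order was led by Cd5l at 171 ± 44.6 FPKM and Lyz2 at 121 ± 34.9 FPKM, with Clec4f at 103 ± 4.33 FPKM, and Lyz2 overlapped with both. Cd163 had the lowest mean of the 10 in each of the 4 groups.

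Spi1 (Ensembl gene ENSMUSG00000002111, chr2:91082390-91115756, plus strand in GRCm38, GENCODE M21, as for all genes below) encodes the transcription factor PU.1. It read 4.49, 2.29 and 7.87 FPKM in WT hepatocytes, 3.06, 2.35 and 2.97 in Cdk1 Liv-/- hepatocytes, 5.47, 8.99 and 8.20 in WT whole liver and 12.2, 16.8 and 11.15 in Cdk1 Liv-/- whole liver. The whole liver groups did not overlap, with Cdk1 Liv-/- higher in all 3 libraries, and the hepatocyte groups overlapped. WT hepatocytes 3 was above every Cdk1 Liv-/- hepatocyte library, and WT hepatocytes 2 was below all of them.

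Csf1r (ENSMUSG00000024621, chr18:61100598-61132149, plus strand) encodes the receptor that macrophages need to survive. It read 22.0, 12.5 and 38.6 FPKM in WT hepatocytes, 11.8, 9.53 and 8.75 in Cdk1 Liv-/- hepatocytes, 26.1, 26.7 and 31.1 in WT whole liver and 28.9, 44.2 and 29.3 in Cdk1 Liv-/- whole liver. Its hepatocyte groups did not overlap, by a narrow margin between WT hepatocytes 2 and Cdk1 Liv-/- hepatocytes 1, and its whole liver groups overlapped. The receptor has a pair of ligands, Csf1 and Il34. Csf1 read 3.00, 2.78 and 5.63 FPKM in WT hepatocytes, 2.54, 2.47 and 3.09 in Cdk1 Liv-/- hepatocytes, 4.87, 5.37 and 5.08 in WT whole liver and 14.2, 7.68 and 6.76 in Cdk1 Liv-/- whole liver. It was higher in all 3 Cdk1 Liv-/- whole liver libraries than in WT and highest in Cdk1 Liv-/- whole liver 1, while in hepatocytes the genotypes overlapped. Il34 read 1.07, 0.29 and 2.17 FPKM in WT hepatocytes, 0.60, 0.46 and 0.33 in Cdk1 Liv-/- hepatocytes, 1.12, 0.72 and 0.89 in WT whole liver and 0.87, 1.77 and 1.07 in Cdk1 Liv-/- whole liver. It was the weaker transcript of the pair in every library and overlapped between the genotypes in both compartments.

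Adgre1 (ENSMUSG00000004730, chr17:57358691-57483527, plus strand) encodes F4/80, the adhesion receptor by which mouse macrophages are stained. It read 12.0, 6.45 and 20.45 FPKM in WT hepatocytes, 5.24, 3.97 and 3.38 in Cdk1 Liv-/- hepatocytes, 12.7, 13.15 and 15.3 in WT whole liver and 13.2, 20.4 and 13.65 in Cdk1 Liv-/- whole liver. All 3 Cdk1 Liv-/- hepatocyte libraries were below all 3 WT hepatocyte libraries. In whole liver, Cdk1 Liv-/- 2 was the highest value and the other two lay within the WT range.

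Clec4f (ENSMUSG00000014542, chr6:83644542-83656187, minus strand) encodes a lectin found on Kupffer cells. It read 58.5, 29.7 and 97.1 FPKM in WT hepatocytes, 41.0, 21.1 and 20.45 in Cdk1 Liv-/- hepatocytes, 88.1, 94.9 and 100.3 in WT whole liver and 98.3, 107 and 104 in Cdk1 Liv-/- whole liver. Whole liver libraries of both genotypes lay close together and overlapped. In hepatocytes, Cdk1 Liv-/- 1 lay inside the WT range and the other two below it. Vsig4 (ENSMUSG00000044206, chrX:96247203-96293438, minus strand) encodes a complement receptor of resident macrophages. It read 24.8, 13.6 and 42.5 FPKM in WT hepatocytes, 14.6, 10.3 and 10.01 in Cdk1 Liv-/- hepatocytes, 30.3, 35.4 and 38.1 in WT whole liver and 39.2, 53.9 and 44.96 in Cdk1 Liv-/- whole liver. The lowest Cdk1 Liv-/- whole liver value was just above the highest WT value, and the hepatocyte groups overlapped.

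Timd4 (ENSMUSG00000055546, chr11:46810800-46844332, plus strand) encodes a receptor for phosphatidylserine on dying cells and marks Kupffer cells of embryonic origin. It read 7.14, 3.47 and 11.7 FPKM in WT hepatocytes, 3.07, 3.02 and 1.76 in Cdk1 Liv-/- hepatocytes, 8.91, 11.1 and 9.86 in WT whole liver and 12.3, 11.8 and 10.1 in Cdk1 Liv-/- whole liver. The hepatocyte groups did not overlap, with Cdk1 Liv-/- lower, and the whole liver groups overlapped.

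Marco (ENSMUSG00000026390, chr1:120474538-120505024, minus strand) and Cd163 (ENSMUSG00000008845, chr6:124304656-124330527, plus strand) encode scavenger receptors, for bacteria and for haemoglobin bound to haptoglobin. Marco read 43.2, 27.65 and 97.2 FPKM in WT hepatocytes, 20.7, 24.8 and 12.6 in Cdk1 Liv-/- hepatocytes, 46.0, 53.8 and 57.95 in WT whole liver and 68.2, 102 and 88.1 in Cdk1 Liv-/- whole liver. The genotypes did not overlap in either compartment, with Cdk1 Liv-/- lower in hepatocytes and higher in whole liver. Cd163 read 2.34, 1.44 and 3.32 FPKM in WT hepatocytes, 0.90, 0.73 and 1.25 in Cdk1 Liv-/- hepatocytes, 3.68, 3.92 and 3.24 in WT whole liver and 1.23, 1.57 and 3.32 in Cdk1 Liv-/- whole liver. Cdk1 Liv-/- hepatocytes were all below WT hepatocytes, and in whole liver Cdk1 Liv-/- 1 and 2 were below WT while Cdk1 Liv-/- 3, the library with Xist, lay inside the WT range.

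Cd5l (ENSMUSG00000015854, chr3:87357881-87371073, plus strand) and Lyz2 (ENSMUSG00000069516, chr10:117277331-117282321, minus strand) encode secreted proteins, an inhibitor of macrophage death that also binds lipid enzymes and the bactericidal lysozyme of macrophages, monocytes and neutrophils. Cd5l read 55.4, 24.8 and 98.3 FPKM in WT hepatocytes, 43.15, 35.1 and 31.4 in Cdk1 Liv-/- hepatocytes, 78.9, 97.5 and 90.3 in WT whole liver and 139.8, 222 and 152 in Cdk1 Liv-/- whole liver. Its lowest Cdk1 Liv-/- whole liver value was well above its highest WT value, and WT hepatocytes enclosed all 3 Cdk1 Liv-/- hepatocyte values. Lyz2 read 37.0, 23.7 and 67.55 FPKM in WT hepatocytes, 26.7, 22.45 and 24.5 in Cdk1 Liv-/- hepatocytes, 41.4, 45.4 and 57.9 in WT whole liver and 94.1, 160.2 and 108 in Cdk1 Liv-/- whole liver. Whole liver separated by genotype without overlap, and hepatocytes overlapped. Its close paralog Lyz1 was at most 0.15 FPKM in any library.

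Whether macrophage RNA in isolated hepatocytes differed with the genotype was tested with limma in 3 libraries against 3. A gene passed when its adjusted p did not exceed 0.1, and it was called when its log2 fold change also reached 1 in size. All 10 markers had lower means in Cdk1 Liv-/- hepatocytes. Their median difference was -1.06 on the log2 scale, beside 0.05 over all genes tested. In bulk RNA, fewer macrophages and less RNA per macrophage cannot be told apart. Adgre1 fell by 1.40 on the log2 scale (SE 0.40, adjusted p 0.0790) and was called. Cd163 passed with a log2 fold change of -0.93 (SE 0.28, adjusted p 0.0915) and was not called.

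Thus 2 of 10 markers passed lower, where 6.61% of all genes did, and 1 was called lower, where 2.17% of all genes were. None passed higher by limma (0 higher at an unadjusted p under 0.05), where 12.1% of all genes did. Timd4, Adgre1, Marco, Cd163 and Csf1r, 5 of the 10, had no overlap between the genotypes, all lower, where 13.4% of all genes were lower without overlap. Marco had a log2 fold change of -1.36 (SE 0.48, adjusted p 0.128), Timd4 of -1.24 (SE 0.43, adjusted p 0.123) and Csf1r of -1.11 (SE 0.39, adjusted p 0.125), which missed the threshold. Clec4f, at -1.07 (SE 0.47, adjusted p 0.198), and Vsig4, at -1.05 (SE 0.40, adjusted p 0.149), also missed it. Lyz2, at -0.66 (adjusted p 0.276), Spi1, at -0.58 (adjusted p 0.382), and Cd5l, at -0.50 (adjusted p 0.526), had the smallest differences, which were -0.27, -0.19 and -0.03 without WT hepatocytes 3.

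Which markers passed changed with single libraries. Without WT hepatocytes 3 none of the 10 markers passed and the median was -0.68, and without WT hepatocytes 2 all 10 passed, 9 were called and the median was -1.48. In the fit without WT hepatocytes 2, 1224 of all genes passed lower and 592 were called lower, against 1149 and 377 with all libraries. Adgre1 missed the threshold without WT hepatocytes 1 (adjusted p 0.184) or 3 (0.129), or without Cdk1 Liv-/- hepatocytes 1 (0.128), 2 (0.178) or 3 (0.2025), with no filter, in a per-gene test and with the replicate number as a block, and passed in 7 of its 15 alternatives, within a range of 0.0120 to 0.2025. Its log2 fold change was -1.01 without WT hepatocytes 3, -1.38 without WT hepatocytes 1 and -1.55, -1.37 and -1.27 without Cdk1 Liv-/- hepatocytes 1, 2 and 3. Cd163 missed it without the same libraries (adjusted p 0.205, 0.175, 0.186, 0.214 and 0.135), with no filter and in a per-gene test, and passed in 8 of 15, within a range of 0.0469 to 0.214, and its log2 fold change was -1.19 to -0.70 without 1 library. Fewer genes passed lower overall in these 5 fits, 402 to 763 against 1149 of all genes. The mean stayed lower in Cdk1 Liv-/- for each of the 10 markers in all 15 alternatives.

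**Figure D2:**
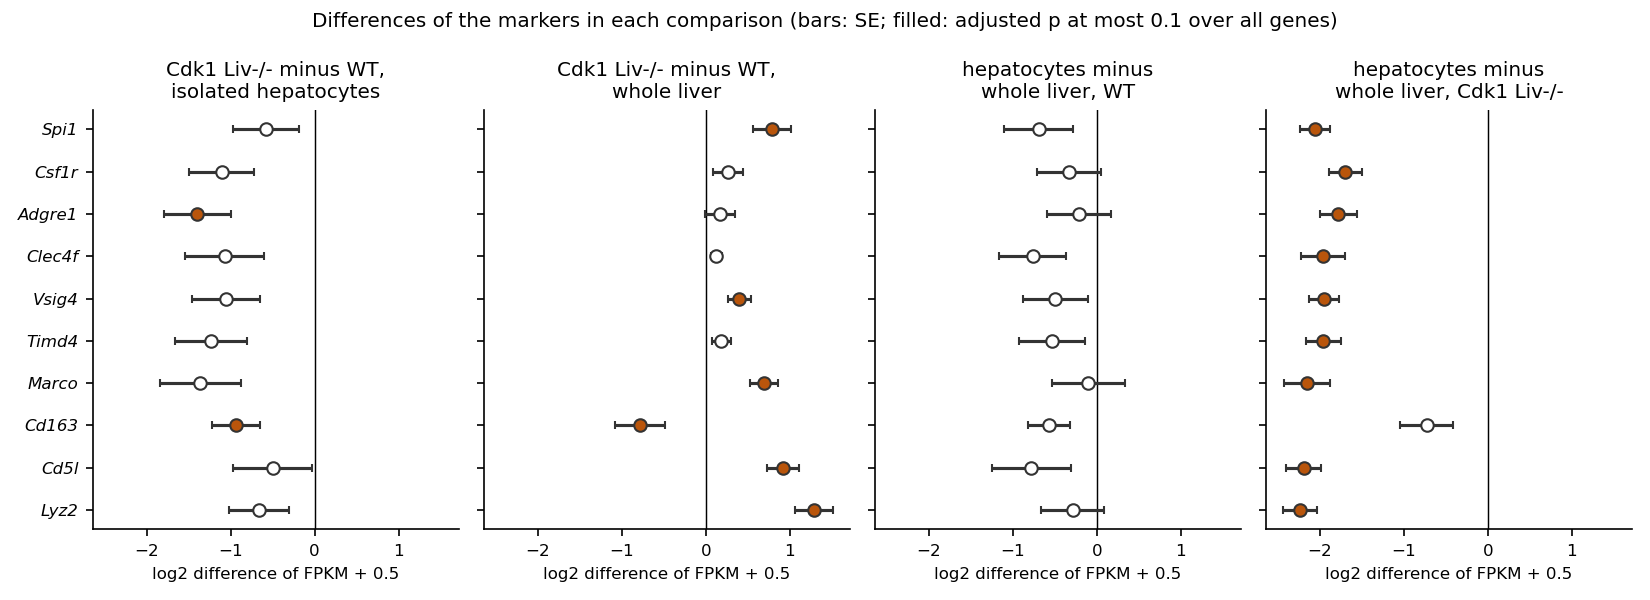
Log2 fold change of each of the 10 markers in the 4 comparisons between groups, with bars of 1 SE, where positive values are higher in Cdk1 Liv-/- or in isolated hepatocytes. Lyz2 lies at -0.66 in hepatocytes and at 1.29 in whole liver, and with median-ratio scaling Clec4f, Timd4 and Adgre1 turn negative in whole liver and Marco turns positive in the WT compartment difference.

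Other markers moved in isolated hepatocytes too. Of 12 further genes of resident liver macrophages, 2 passed lower and were called, the transcription factor Spic at -1.36 (SE 0.38, adjusted p 0.0755) and the iron exporter Slc40a1 at -1.29 (SE 0.12, adjusted p 0.00291), while none passed higher by limma (0 at an unadjusted p under 0.05), and the list median was -0.61. Slc40a1 read 78.9, 69.4 and 92.4 FPKM in WT hepatocytes and 74.1, 78.7 and 81.6 in WT whole liver. Which cells its RNA came from was not tested. Of 22 further macrophage genes, 1 passed higher and 2 lower, among them Aif1 at -1.29 (SE 0.37, adjusted p 0.0799). C1qc, at -1.30 (SE 0.42, adjusted p 0.1016), missed the threshold. Cd14, a receptor for bacterial lipopolysaccharide that hepatocytes can also make, was 1.65 (adjusted p 0.113). The median of these 22 genes was -0.67, and with median-ratio scaling 1 passed higher and 6 lower. Without WT hepatocytes 3 the medians of these 2 lists were -0.23 and -0.28, with 2 of 12 passing lower in the first, and 2 of 22 higher and 1 lower in the second. Of 10 sinusoidal endothelial markers 9 were called lower, at a median of -1.61. Macrophages also express Mrc1 and Fcgr2b from that list. Lyve1, a hyaluronan receptor, was -2.44 (SE 0.48, adjusted p 0.0284) and Oit3 was -2.03 (SE 0.40, adjusted p 0.0284). The summed endothelial level was 182, 119.8 and 339 FPKM in WT hepatocytes and 85.2, 55.6 and 65.0 in Cdk1 Liv-/- hepatocytes, with Clec4g or Fcgr2b the most abundant gene of each library and no marker at 0. Without WT hepatocytes 3, 8 of 10 endothelial markers passed lower at a median of -1.17.

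Of 14 tested genes for CSF1 receptor ligands, niche signals and their receptors, 2 passed lower in hepatocytes, endoglin (Eng) at -1.88 (SE 0.37, adjusted p 0.0295) and Bmp10 at -1.65 (SE 0.34, adjusted p 0.0337), and none passed higher by limma (0 at an unadjusted p under 0.05). Csf1 was -0.37 (adjusted p 0.403) and Il34 was -0.64 (adjusted p 0.379). Monocyte markers had 1 of 8 higher, the chemokine receptor Ccr2 at 1.18 (SE 0.17, adjusted p 0.0109), at a list median of 0.05 (0.25 without WT hepatocytes 3), and the summed level, led by Plac8, was 12.4, 8.14 and 20 FPKM in WT hepatocytes and 13.01, 12.3 and 15.1 in Cdk1 Liv-/- hepatocytes. Neutrophil markers had 0 of 10 passed in either direction by limma (0 at an unadjusted p under 0.05), at a median of -0.24, which became 0.19 without WT hepatocytes 3. Of 8 genes of lipid- and scar-associated macrophages, 3 passed higher and 2 lower, with Spp1 at 2.20 (SE 0.33, adjusted p 0.0132) and Cd9 at 2.17 (SE 0.20, adjusted p 0.00319) against Fabp5 at -1.71 (SE 0.25, adjusted p 0.0112). None of these 3 genes is confined to macrophages in liver.

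Among the remaining lists, stellate cell markers had 2 of 8 passing lower (median -0.88), B cell markers 2 of 4 lower (median -1.02), T and NK cell markers 2 of 5 lower (median -0.40), erythroid markers 1 of 7 lower (median -1.59) and dendritic cell markers 1 of 6 lower (median -0.000198). Cholangiocyte markers had 3 of 4 passing higher (median 0.59), and hepatocyte markers had 1 of 8 higher and 2 lower (median -0.12). Without WT hepatocytes 3, 0 of 8 stellate cell markers passed (median -0.40), 0 of 7 erythroid markers (median -1.10), 1 of 5 T and NK cell markers (median -0.24) and 2 of 4 cholangiocyte markers, 0 hepatocyte markers passed higher, B cell markers still had 2 of 4 lower (median -0.69), and the dendritic cell median turned to 0.03. Summed stellate cell markers were 205, 122 and 423 FPKM in WT hepatocytes and 119.8, 114 and 98.95 in Cdk1 Liv-/- hepatocytes, led by Dcn, Reln or Col3a1 depending on the library. Summed erythroid markers were 146, 107 and 581 FPKM in WT hepatocytes and 72.2, 99.6 and 24.4 in Cdk1 Liv-/- hepatocytes, led by Hbb-bs, and no marker of either list was at 0. Among the hepatocyte libraries both sums were highest in WT hepatocytes 3, as were those of the macrophage, endothelial and neutrophil markers. The part of these cell types in the lower macrophage markers was not tested.

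**Figure D3:**
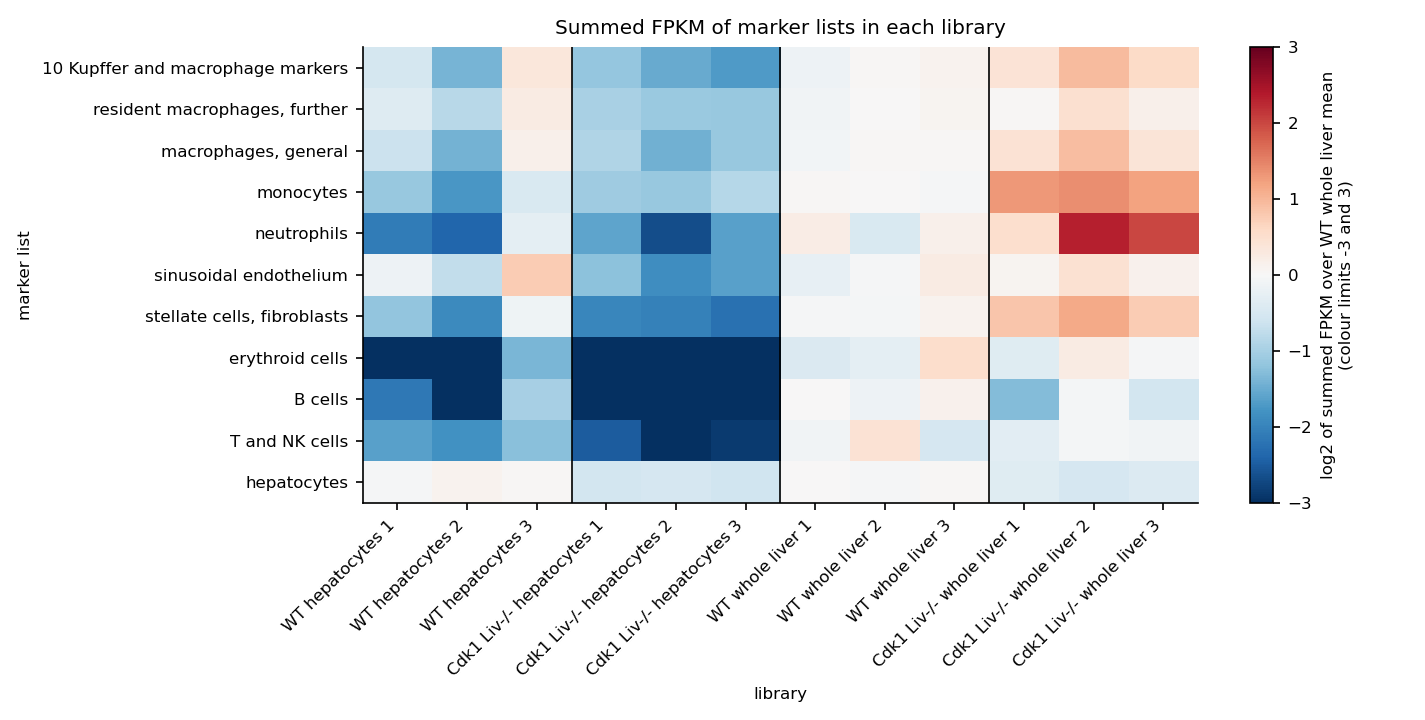
Summed FPKM of the markers of each cell type in every library, relative to the mean of WT whole liver, as colour on a log2 scale limited at -3 and 3. WT hepatocytes 3 has 1.27 for the Kupffer cell and macrophage markers and 1.69 for the endothelial markers, and the Cdk1 Liv-/- hepatocyte libraries have 0.307 to 0.446 and 0.276 to 0.423.

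In whole liver, macrophage RNA was compared between the genotypes in tissue that had not been dissociated. Lyz2, Cd5l, Marco, Spi1 and Vsig4 rose in Cdk1 Liv-/- whole liver, while Clec4f, Timd4, Adgre1 and Csf1r did not pass, and Cd163 passed lower. Lyz2 went from 48.2 ± 8.64 to 121 ± 34.9 FPKM (mean ± SD, n = 3), a log2 fold change of 1.29 (SE 0.23, adjusted p 0.0107), and was called. Cd5l went from 88.9 ± 9.37 to 171 ± 44.6 FPKM, a log2 fold change of 0.92 (SE 0.19, adjusted p 0.0168). Spi1 had a log2 fold change of 0.79 (SE 0.23, adjusted p 0.04205), Marco of 0.69 (SE 0.16, adjusted p 0.0252) and Vsig4 of 0.40 (SE 0.14, adjusted p 0.0727).

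Clec4f had a log2 fold change of 0.13 (SE 0.07, adjusted p 0.181) in whole liver, Timd4 of 0.19 (SE 0.11, adjusted p 0.231), Adgre1 of 0.17 (SE 0.18, adjusted p 0.4965) and Csf1r of 0.26 (SE 0.18, adjusted p 0.2999), which was 0.06 without Cdk1 Liv-/- whole liver 2 and 0.04 with median-ratio scaling. Cd163 passed lower at -0.78 (SE 0.30, adjusted p 0.0921). Passed higher were 5 of 10, where 38% of all genes did, so that share is near the background. Passed lower was 1 of 10, where 7.53% of all genes did, and called higher was 1 of 10, where 4.59% of all genes were. The genotypes did not overlap for the 5 that rose, where 43.2% of all genes were higher without overlap.

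The median over the markers was 0.33 beside 0.18 over all genes, and median-ratio scaling, which divides each library by its median ratio to the others, brought the all-gene median to 0.01 and took the higher calls from 82.1% to 67.9% of all calls. Under it the marker median was 0.11, Clec4f (-0.09), Timd4 (-0.02) and Adgre1 (-0.05) turned negative, and Lyz2, Cd5l and Marco still passed. Lyz2 was called in all 15 alternatives, with an adjusted p of 0.00642 to 0.0451. Cd5l passed in 14 of them (adjusted p 0.0108 to 0.106), Marco in 14 (0.0140 to 0.213), Spi1 in 12 (0.0290 to 0.109) and Vsig4 in 7 (0.0455 to 0.387). Cd5l and Marco missed the threshold in the fit that takes 1 spread from all 12 libraries, and Spi1 there, in a per-gene test and with median-ratio scaling.

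Single libraries mattered in whole liver for Vsig4, Cd5l and Cd163. Vsig4 missed the threshold without WT whole liver 1 (adjusted p 0.196) or 2 (0.141) and without Cdk1 Liv-/- whole liver 2 (0.143) or 3 (0.144), with a log2 fold change of 0.28 to 0.51 without 1 library. Cd163 missed it without WT whole liver 1 (0.202), 2 (0.207) or 3 (0.153) and without Cdk1 Liv-/- whole liver 1 (0.197) or 2 (0.208), with no filter, in a per-gene test and with the replicate number as a block, so it passed in 7 of 15 alternatives, over a range of 0.0120 to 0.208, with a log2 fold change of -1.12 to -0.55 without 1 library. Without Cdk1 Liv-/- whole liver 3, the library with Xist, Cd163 was called at -1.12 (adjusted p 0.0120), Lyz2 was 1.35 (0.0327), Cd5l 0.99 (0.0403), Marco 0.67 (0.0752) and Spi1 0.91 (0.0629). Cd5l was also called, at 1.05, without Cdk1 Liv-/- whole liver 1 (adjusted p 0.0214). Adgre1 turned to -0.03 without Cdk1 Liv-/- whole liver 2.

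Most markers of monocytes and neutrophils rose in Cdk1 Liv-/- whole liver. Of 8 monocyte markers 7 passed higher, where 38% of all genes did, at a median of 1.00, and 7 also with median-ratio scaling. Ccr2, the receptor by which monocytes leave bone marrow, read 0.77, 0.57 and 0.62 FPKM in WT whole liver and 4.72, 6.47 and 4.05 in Cdk1 Liv-/- whole liver. Its log2 fold change was 2.26 (SE 0.17, adjusted p 0.001115), and that of Ly6c2 was 1.31 (SE 0.09, adjusted p 0.000739). Summed monocyte markers were 27.8, 27.5 and 26.45 FPKM in WT whole liver and 66.8, 71.7 and 63.15 in Cdk1 Liv-/- whole liver, with Plac8 the most abundant gene and none at 0. Of 10 neutrophil markers 8 passed higher, at a median of 1.33. S100a9 was 1.72 (SE 0.50, adjusted p 0.0440) and S100a8 was 1.63 (SE 0.50, adjusted p 0.0505). Summed neutrophil markers were 76.0, 47.7 and 73.0 FPKM in WT whole liver and 93.1, 328 and 261 in Cdk1 Liv-/- whole liver, with S100a9 the most abundant gene and none at 0. Cdk1 Liv-/- whole liver 1 was the nearest to WT, and 3 of 10 passed without Cdk1 Liv-/- whole liver 3. Monocytes and neutrophils also express Lyz2 and Spi1, and the part of these cells in the higher Lyz2 and Spi1 was not tested.

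Genes of lipid- and scar-associated macrophages passed higher in 6 of 8, where 38% of all genes did, at a median of 1.92, with Lpl lower at -1.03 (SE 0.05, adjusted p 0.000286). Spp1 and Cd9, among the 6, were also higher in isolated hepatocytes (2.20 and 2.17), and neither is confined to macrophages in liver. Trem2, a lipid receptor of recruited macrophages, read 0.42, 0.38 and 0.56 FPKM in WT whole liver and 3.58, 7.28 and 3.29 in Cdk1 Liv-/- whole liver. Its log2 fold change was 2.38 (SE 0.29, adjusted p 0.00398), and that of Gpnmb was 2.51 (SE 0.41, adjusted p 0.00866). Of 22 further macrophage genes 14 passed higher, where 38% of all genes did, at a median of 0.68. With median-ratio scaling 9 did, where 3104 of all genes passed higher, against 6610 without it. Cd14 read 1.56, 2.11 and 2.19 FPKM in WT whole liver and 18.1, 23.25 and 17.7 in Cdk1 Liv-/- whole liver. Cd14, which hepatocytes can also make, was 1.65 in isolated hepatocytes (adjusted p 0.113). In whole liver, Cd14 rose by 3.04 on the log2 scale (adjusted p 0.000296) and Tlr2 by 1.201 (adjusted p 0.00601), while the engulfment receptor Mertk was -0.10 (adjusted p 0.613) and C1qa was 0.19 (adjusted p 0.227). Of 12 further genes of resident liver macrophages 4 passed higher, where 38% of all genes did, among them Hmox1 at 0.98 (SE 0.27, adjusted p 0.0386) and Clec1b at 0.82 (SE 0.26, adjusted p 0.0579), while Slc40a1 was -0.24 (adjusted p 0.120). That list had a median of 0.31, and with median-ratio scaling 2 passed higher and 3 lower.

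Of 14 tested niche genes 7 passed higher in whole liver, where 38% of all genes did, with the GM-CSF receptor subunits Csf2rb at 1.03 (SE 0.20, adjusted p 0.0147) and Csf2ra at 0.87 (SE 0.14, adjusted p 0.00841), and with median-ratio scaling 3 passed higher and 1 lower. Bmp10, the lowest of the list, was -0.62 (adjusted p 0.1003), and 1 gene passed lower without Cdk1 Liv-/- whole liver 3. Csf1 rose by 0.77 (adjusted p 0.0710) and Il34 was 0.28 (adjusted p 0.3535). The Csf1 value leans on Cdk1 Liv-/- whole liver 1, where Csf1 was far above all other libraries, and is not given without it. Csf2, the ligand of the GM-CSF receptor, was below the filter. Endothelial markers had 2 of 10 higher at a median of 0.14, which turned to -0.07 with median-ratio scaling. None of the 10 passed with that scaling or without Cdk1 Liv-/- whole liver 3, and their sum was 169.9, 196 and 238 FPKM in WT whole liver and 214, 278 and 221 in Cdk1 Liv-/- whole liver. Stellate cell markers had 5 of 8 passing higher (median 0.72), and their sum, led by Col3a1, was 449.9, 443 and 498 FPKM in WT whole liver and 829, 1021 and 789.6 in Cdk1 Liv-/- whole liver. Passing higher were also 3 of 4 cholangiocyte markers (median 1.14) and 3 of 6 dendritic cell markers (median 0.42), of which 1 cholangiocyte marker passed with median-ratio scaling and 1 without Cdk1 Liv-/- whole liver 3. Hepatocyte markers had 4 of 8 passing lower (median -0.46), B cell markers 2 of 4 lower (median -0.51) and erythroid markers 2 of 7 lower at a median of 0.21, which turned to -0.02 with median-ratio scaling. Without Cdk1 Liv-/- whole liver 3, 0 B cell markers and 1 erythroid marker passed. T and NK cell markers had 0 of 5 passed by limma (0 at an unadjusted p under 0.05). The part of these cell types in the macrophage markers was not tested.

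**Figure D4:**
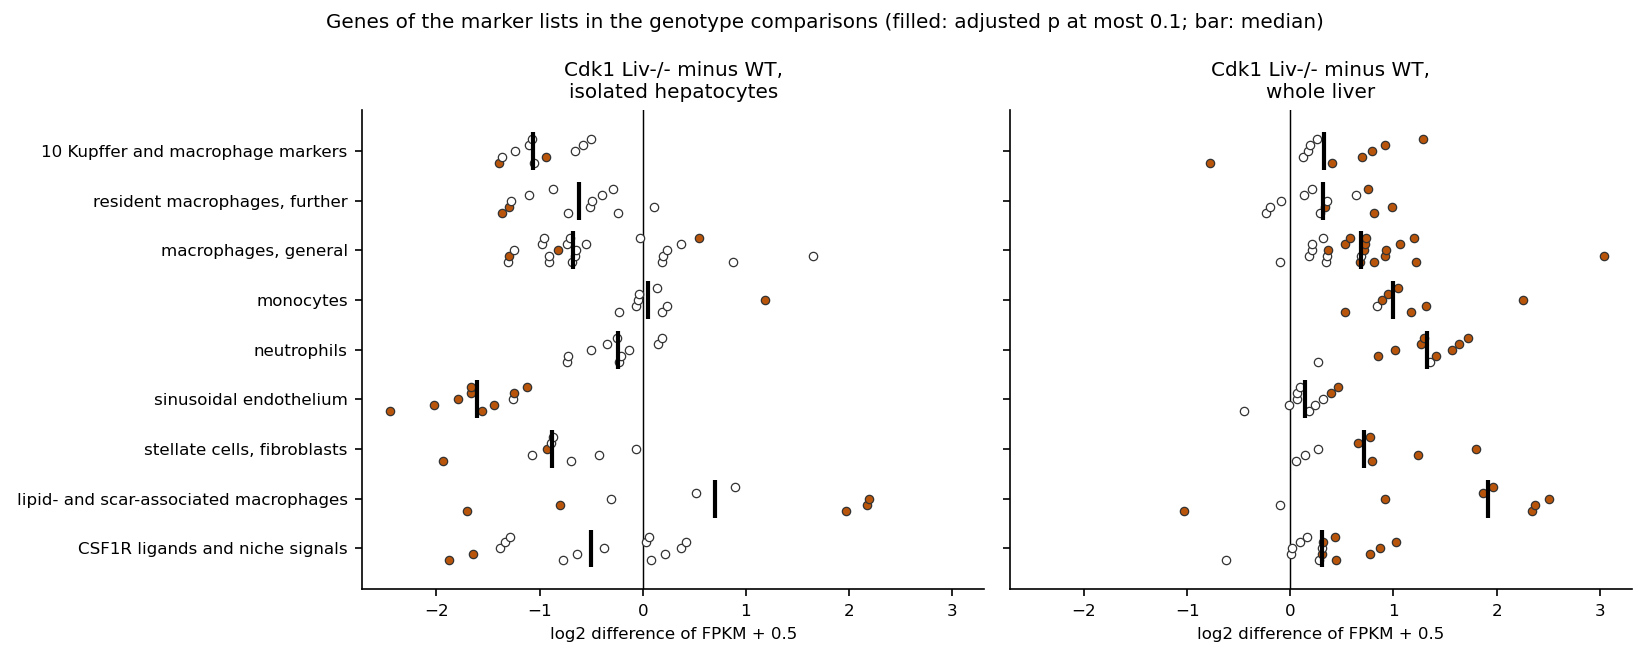
Log2 fold changes between the genotypes for the genes of each marker list, in isolated hepatocytes and in whole liver, with a point per gene and a line at the list median. The monocyte list has medians of 0.05 in hepatocytes and 1.00 in whole liver, and the endothelial list of -1.61 and 0.14, the last turning to -0.07 with median-ratio scaling.

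Isolation should separate hepatocytes from macrophages, and the comparison of compartments shows how far it did. It shares its libraries with the comparisons of genotypes. In WT, all 10 markers had lower means on the log2 scale in isolated hepatocytes than in whole liver, at a median of -0.51 beside -0.10 over all genes. That median rests on single libraries, as it was -0.10 without WT hepatocytes 2, beside -0.08 over all genes, and -0.85 without WT hepatocytes 3. The largest differences were Cd5l at -0.78 (SE 0.47, adjusted p 0.400) and Clec4f at -0.76 (SE 0.40, adjusted p 0.349), and the smallest was Marco at -0.10 (SE 0.44, adjusted p 0.914), which turned to 0.03 with median-ratio scaling. None of the 10 passed lower by limma (0 at an unadjusted p under 0.05), where 1.42% of all genes did, none was called lower, where 0.426% were, and none was lower without overlap, where 20.7% were. Without WT hepatocytes 3, Clec4f (-1.17, adjusted p 0.0753) and Cd5l (-1.24, 0.0923) were called and Cd163 (-0.81, 0.0755) passed, where the ranges over all alternatives were 0.0753 to 0.583, 0.0923 to 0.640 and 0.0755 to 0.565. In that fit 2656 of all genes passed lower and 472 were called lower, against 247 and 74 with all libraries. Without WT hepatocytes 2, Adgre1 (0.19), Marco (0.30), Csf1r (0.06) and Lyz2 (0.07) turned positive. Lists of other cell types had WT medians of -0.00272 for endothelial markers, -0.71 for monocyte markers, -0.92 for stellate cell markers, -1.12 for neutrophil markers and -2.87 for erythroid markers, and without WT hepatocytes 3 these were -0.36, -0.82, -1.37, -1.64 and -3.59.

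In Cdk1 Liv-/-, isolated hepatocytes held far less macrophage RNA than whole liver. Lyz2 had a log2 difference of -2.24 (SE 0.20, adjusted p 0.00104), Cd5l of -2.19 (SE 0.20, adjusted p 0.00113), Marco of -2.16 (SE 0.27, adjusted p 0.00266), Spi1 of -2.06 (SE 0.18, adjusted p 0.000981) and Clec4f of -1.96 (SE 0.26, adjusted p 0.00341). Vsig4 was at -1.95 (adjusted p 0.00113), Timd4 at -1.96 (adjusted p 0.00150), Adgre1 at -1.78 (adjusted p 0.00248) and Csf1r at -1.70 (adjusted p 0.00208). These 9 of 10 passed lower, where 35.9% of all genes did, and all 9 were called, where 9.46% were. The same 9 were lower without overlap, where 40.3% were.

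Cd163, at -0.73 (SE 0.32, adjusted p 0.122), missed the threshold and overlapped, although it passed without Cdk1 Liv-/- whole liver 1 (-0.96, adjusted p 0.0827, range 0.0732 to 0.262), in the fit of all 12 libraries and with the replicate number as a block. Its log2 difference was -0.96 to -0.39 without 1 library. The other 9 were called in all 15 alternatives. The marker median was -1.96 beside -0.19 over all genes. Median-ratio scaling brought these to -1.70 and 0.02, with all 10 markers still lower. It took the calls that were higher in hepatocytes from 13.7% to 27.5% of all calls. Endothelial markers were all called lower there (10 of 10, median -1.85), as were 8 of 8 stellate cell markers (median -2.52), 9 of 10 neutrophil markers (median -2.80, with 8 passing without Cdk1 Liv-/- whole liver 3) and 7 of 8 monocyte markers (median -1.47).

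Whether the genotype difference was itself different in hepatocytes and in whole liver was tested as the interaction in 1 fit of all 12 libraries, with the same limit of 0.1 on the adjusted p. Lyz2 had the clearest result, with an interaction of -1.95 (SE 0.45, adjusted p 0.0548), hepatocytes minus whole liver. Marco followed at -2.06 (SE 0.55, adjusted p 0.0700), then Adgre1 at -1.57 (SE 0.47, adjusted p 0.0870) and Vsig4 at -1.45 (SE 0.45, adjusted p 0.0966). These 4 of 10 passed lower, where 7.49% of all genes did, and none passed higher by limma (0 at an unadjusted p under 0.05). Timd4, at -1.42 (SE 0.47, adjusted p 0.105), and Csf1r, at -1.37 (SE 0.46, adjusted p 0.108), missed the threshold, as did Cd5l at -1.42 (adjusted p 0.149), Spi1 at -1.37 (adjusted p 0.119) and Clec4f at -1.198 (adjusted p 0.187). Cd163, at -0.16 (adjusted p 0.8655), had the smallest value, and it turned positive without WT hepatocytes 3 (0.08) or Cdk1 Liv-/- whole liver 3 (0.18). The marker median was -1.42 beside -0.11 over all genes, and median-ratio scaling brought these to -1.28 and 0.01, all 10 still negative, and took the higher genes from 23.9% to 52.8% of those that passed.

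Lyz2 passed the interaction in 16 of 19 alternatives (adjusted p 0.0110 to 0.143), missing it without WT whole liver 1 (0.143) or 2 (0.110) and without Cdk1 Liv-/- whole liver 2 (0.109). Marco passed in 10 of 19 (0.0172 to 0.166), missing it without WT hepatocytes 1 (0.1025), Cdk1 Liv-/- hepatocytes 3 (0.121), WT whole liver 1 (0.166), 2 (0.129) or 3 (0.116) and Cdk1 Liv-/- whole liver 2 (0.145) or 3 (0.114), with no filter and with the replicate number as a block. Adgre1 passed in 5 of 19 (0.0135 to 0.190) and Vsig4 in 4 of 19 (0.0132 to 0.206), and of the 12 settings that leave out 1 library both passed in that without WT hepatocytes 2 alone (0.0135 and 0.0132). Without any other 1 library, WT or Cdk1 Liv-/-, the adjusted p was 0.102 to 0.190 for Adgre1 and 0.107 to 0.206 for Vsig4. Without WT hepatocytes 2, 9 of 10 markers passed, without WT hepatocytes 3, 2 did, and without WT whole liver 1 or 2 or Cdk1 Liv-/- whole liver 2, none did by limma. In the last 3 fits the marker median was -1.34, -1.49 and -1.27, and 43, 280 and 266 of all genes passed lower, against 1303 with all libraries. Of all genes, 2232 passed lower without WT hepatocytes 2 and 693 without WT hepatocytes 3. Endothelial markers passed lower in 8 of 10, at a median of -1.73, and in 5 with median-ratio scaling, 6 without WT hepatocytes 3 and 4 without Cdk1 Liv-/- whole liver 3. Some other lists also had negative medians. They were -1.69 for erythroid (0 of 7 passed), -1.66 for neutrophil (0 of 10) and -1.58 for stellate cell markers (3 of 8). Further macrophage genes had -1.28 (8 of 22) and monocyte markers -1.003 (4 of 8). With median-ratio scaling 0 stellate cell, 2 further macrophage and 3 monocyte markers passed lower, at medians of -1.43, -1.13 and -0.83. Without WT hepatocytes 3 these counts were 3, 3 and 3 (medians -1.10, -0.82 and -0.85), and the erythroid median was -0.92. Without Cdk1 Liv-/- whole liver 3 they were 0, 3 and 1 (medians -1.62, -1.36 and -1.07).

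The level of each marker relative to Clec4f, a comparison chosen after values were seen, sets each marker beside a gene of Kupffer cells. It is no measure of macrophages alone, since other cells also express some of these genes, among them Lyz2 and Spi1. In WT hepatocytes Clec4f itself differed 3.27-fold between the highest and the lowest library. Adgre1 relative to Clec4f was 0.205, 0.217 and 0.211 in WT hepatocytes and 0.128, 0.188 and 0.165 in Cdk1 Liv-/- hepatocytes. The WT values lay together and above all 3 Cdk1 Liv-/- values. Cd5l relative to Clec4f was 0.948, 0.8345 and 1.01 in WT hepatocytes and 1.05, 1.66 and 1.535 in Cdk1 Liv-/- hepatocytes. It was 0.895, 1.03 and 0.900 in WT whole liver and 1.42, 2.08 and 1.45 in Cdk1 Liv-/- whole liver. All 6 Cdk1 Liv-/- libraries, of which the lowest was 1.05, were above all 6 WT libraries, of which the highest was 1.03. This is a description of these libraries, with no test.

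In hepatocytes, 1 of 9 ratios (Cd5l, 1.52 times the WT mean) was higher in Cdk1 Liv-/- without overlap, where 22.8% of all genes were, and 1 (Adgre1, 0.760 times) was lower, where 1.91% were. In whole liver, 5 of 9 were higher without overlap, where 29.3% of all genes were. They were Lyz2 (2.29 times the WT mean), Cd5l (1.76 times), Spi1 (1.63 times), Marco (1.495 times) and Vsig4 (1.22 times). Cd163 alone was lower, by a narrow margin in Cdk1 Liv-/- whole liver 3, at 0.512 times the WT mean, where 11.5% of all genes were lower. Timd4 (1.05 times), Adgre1 (1.05 times) and Csf1r (1.115 times) overlapped. Lyz2 relative to Clec4f was 0.4695, 0.478 and 0.578 in WT whole liver and 0.957, 1.502 and 1.03 in Cdk1 Liv-/- whole liver. The lowest Cdk1 Liv-/- value was well above the highest WT value.

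Between compartments in WT, 6 of 9 ratios were higher in isolated hepatocytes than in whole liver without overlap, where 13.3% of all genes were. They were Marco (1.60 times the whole liver mean), Adgre1 (1.45 times), Lyz2 (1.39 times), Csf1r (1.35 times), Vsig4 (1.201 times) and Timd4 (1.14 times, where the lowest hepatocyte ratio, 0.1168, and the highest whole liver ratio, 0.1166, nearly tie), while Cd5l (0.990 times), Spi1 (0.9845 times) and Cd163 (1.06 times) overlapped. In Cdk1 Liv-/- all 9 ratios overlapped between the compartments. Scaling between libraries leaves a ratio within a library as it is.

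**Figure D5:**
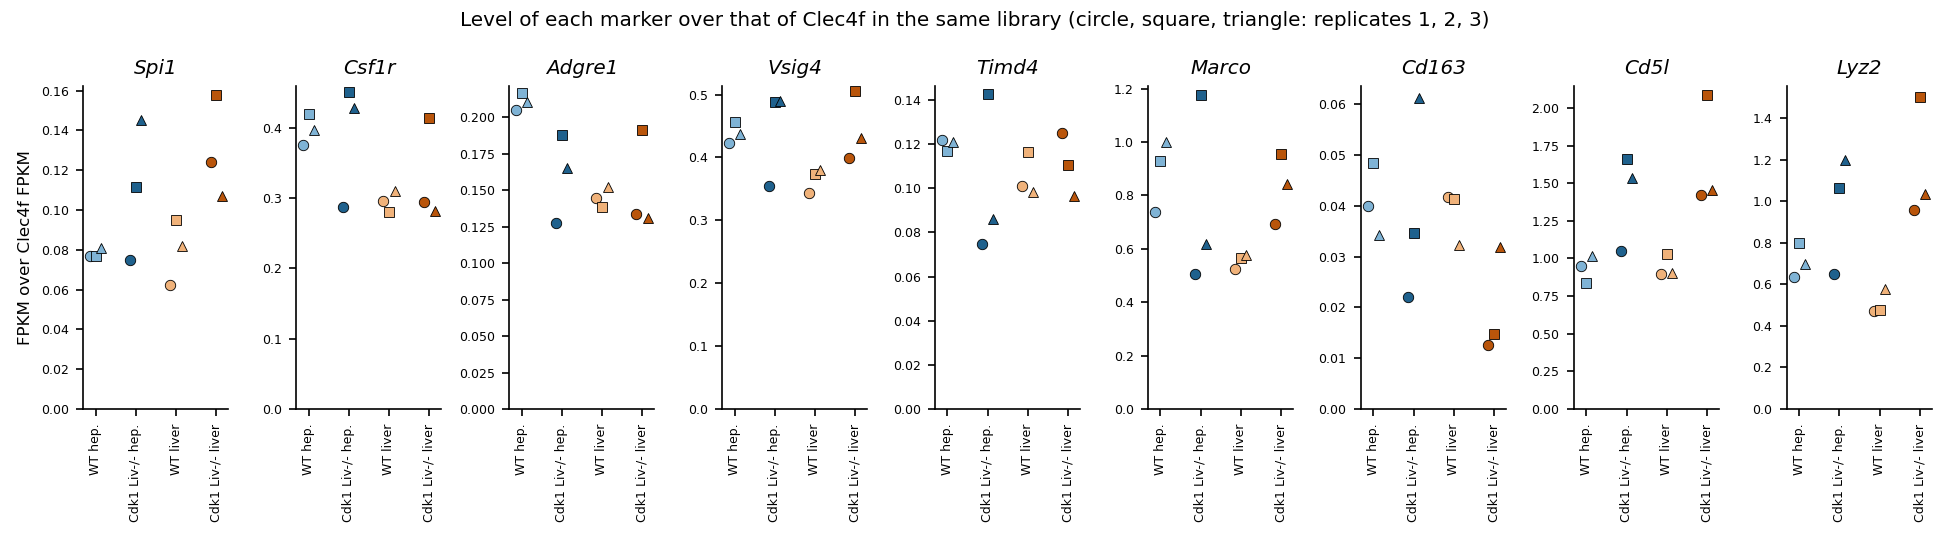
FPKM of each marker divided by FPKM of Clec4f in the same library, with a point per library, on axes that start at 0 and differ between markers. Lyz2 lies at 0.4695 to 0.578 in WT whole liver and at 0.957 to 1.502 in Cdk1 Liv-/- whole liver, and Cd163 at 0.0323 to 0.0418 and 0.0125 to 0.0318.

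The genes most like each marker over the 12 libraries were found by the root mean square difference of log2 levels, each centred on its own mean, among 12281 genes with a mean of at least 1 FPKM. Of the 30 nearest genes, 3 for each marker, 26 were different genes. Adgre1 and Csf1r were each other's nearest gene, at 0.113, and were the only pair of markers to appear. Clec4f was nearest to Ctla2b (0.126), C1qa (0.1497) and Epsti1 (0.162). Vsig4 was nearest to Slc44a2 (0.112), Timd4 to Ngfr (0.146), Cd5l to Evl (0.132) and Spi1 to Ppp1r9b (0.133). Lyz2 was nearest to Cxcl16 (0.177) and Marco to Gatm (0.203). Cd163 had no gene closer than 2900093K20Rik at 0.286, which made it the marker with the least like neighbours. Besides the markers, 3 of the 30 were on the other lists: C1qa, Laptm5 and Mrc1.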

How the data were processed

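The deposited table holds FPKM per gene, which the authors made from polyA RNA (TruSeq Stranded, single-end reads of 75 bp) with STAR and RSEM 1.2.31 on mm10, with no normalization between libraries. The annotation release is not given in the sources used here. Genes that averaged 0.1 FPKM or more over the 12 libraries were tested with limma 3.58.1 (R 4.3.3, eBayes with trend, two-sided) on log2(FPKM + 0.5), with Benjamini-Hochberg adjustment over 17386 genes. The members and lists were chosen with earlier results of these data known. The genes named were drawn from the 10 markers, Csf1, Il34 and the 3 nearest genes of each marker. The 14 other lists gave genes with the largest and smallest log2 fold changes among those averaging 1 FPKM or more. Not all of these genes are named in each comparison. Lists are described by counts and medians. Steps were tested on simulated data. For the fits, the simulated spread between libraries was capped and independent between genes, so it did not match the wide spread among WT hepatocytes. Alternatives were the pseudocount, the filter, the scaling, the test, the spread, a replicate block, the call rule and leaving out 1 library. Reads per gene used GENCODE M21 transcript lengths.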

Additional observations from a re-analysis of the deposited data

Results flagged for a closer look

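For 4 of the 10 markers the interaction of genotype and compartment passed lower in limma over all 12 libraries, where 7.49% of all genes did. None of the 10 passed without WT whole liver 1, without WT whole liver 2 or without Cdk1 Liv-/- whole liver 2. There the marker median was -1.34, -1.49 and -1.27 against -1.42, and 43, 280 and 266 of all genes passed lower against 1303. Without WT hepatocytes 2, 9 passed, where 2232 of all genes passed lower. The interaction was -1.95 (SE 0.45, adjusted p 0.0548) for Lyz2, where the genotype difference was -0.66 in hepatocytes (-0.27 without WT hepatocytes 3) and 1.29 in whole liver. It was -2.06 (SE 0.55, adjusted p 0.0700) for Marco, with -1.36 (-0.87 without WT hepatocytes 3) and 0.69. It was -1.57 (SE 0.47, adjusted p 0.0870) for Adgre1, with -1.40 and 0.17, the last turning to -0.05 with median-ratio scaling. It was -1.45 (SE 0.45, adjusted p 0.0966) for Vsig4, with -1.05 (-0.66 without WT hepatocytes 3) and 0.40 (at lowest 0.18 over the alternatives). Of 19 alternatives Lyz2 passed in 16, Marco in 10, Adgre1 in 5 and Vsig4 in 4. The count of 4 markers became 2 with median-ratio scaling, at a median of -1.28. It became 1 with no filter and 1 with the replicate number as a block. Of 10 endothelial markers 8 passed the same test, 5 with median-ratio scaling, 6 without WT hepatocytes 3 and 4 without Cdk1 Liv-/- whole liver 3. Some other lists also had negative medians. They were -1.69 for erythroid (0 of 7 passed), -1.66 for neutrophil (0 of 10) and -1.58 for stellate cell markers (3 of 8). Further macrophage genes had -1.28 (8 of 22) and monocyte markers -1.003 (4 of 8). With median-ratio scaling 0 stellate cell, 2 further macrophage and 3 monocyte markers passed lower, at medians of -1.43, -1.13 and -0.83. Without WT hepatocytes 3 these counts were 3, 3 and 3 (medians -1.10, -0.82 and -0.85), and the erythroid median was -0.92. Without Cdk1 Liv-/- whole liver 3 they were 0, 3 and 1 (medians -1.62, -1.36 and -1.07). The part of these cell types in the result was not tested.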

How the results depend on the processing

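In Cdk1 Liv-/- hepatocytes against whole liver, all 150 marker values kept their direction over 15 alternatives, Cd163 came to pass, without being called, in 3 of them, and the count called lower was 9 throughout, while the median moved to -1.70 with median-ratio scaling. In hepatocytes, 0 of 150 values reversed, but the count of markers called lower, 1, became 2 with a pseudocount of 0.1, 4 with a mean FPKM of at least 1, 4 with median-ratio scaling, 6 with 1 fit of 12 libraries, 2 with adjusted p alone, 0 with no filter, 0 with a per-gene test without shared spread, and 0 to 9 without 1 library. In whole liver, the count that passed higher, 5, became 6 with the same sum in every library, 3 with median-ratio scaling or a per-gene test, 1 with 1 fit of 12 libraries and 4 to 5 without 1 library. There, 5 were called higher and 1 lower with adjusted p alone, 1 to 2 higher and 0 to 1 lower without 1 library, and the median was 0.11 with median-ratio scaling, where Clec4f (-0.0932), Timd4 (-0.0248) and Adgre1 (-0.0456) reversed. Without 1 library Adgre1 ran from -0.0279 to 0.28 and Csf1r from 0.0629 to 0.36, which was 0.0421 with median-ratio scaling. In the WT compartment difference, 0 to 2 markers were called lower without 1 library, where Adgre1 ran from -0.60 to 0.19, Marco from -0.59 to 0.30, Csf1r from -0.73 to 0.0648 and Lyz2 from -0.68 to 0.0666. The median there was -0.0957 without WT hepatocytes 2 and -0.85 without WT hepatocytes 3. Marco was 0.0268 with median-ratio scaling. The interaction count, 4, became 6 with the same sum in every library, 5 with a mean FPKM of at least 1, 3 with a pseudocount of 0.1, 2 with median-ratio scaling, 1 with no filter and 0 to 9 without 1 library, where the median ran from -1.86 to -1.01 and Cd163 from -0.41 to 0.18. Over all genes, 168 to 592 were called lower in hepatocytes without 1 library, against 377. For the WT compartment difference 0 to 472 were, against 74, and for the interaction 43 to 2232 passed lower, against 1303. With 1 library left out, the group is assumed to vary like the others. The cause of these shifts was not tested.

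With the replicate number as a replicate block, 0 markers were called lower in hepatocytes and 1 passed lower in the interaction. The sources do not say whether the numbers pair libraries. Over genes, deviations from group means of libraries with the same number had Pearson r of -0.317 to 0.239 between groups, and all 3 values between WT hepatocytes and WT whole liver were positive (0.0456, 0.074 and 0.239) and all 3 between Cdk1 Liv-/- hepatocytes and Cdk1 Liv-/- whole liver negative (-0.0346, -0.0569 and -0.121).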
